A study of Mus musculus with 6 samples.

Results

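The 5 genes described here encode the urokinase receptor and proteins that start plasminogen activation at the cell surface: Plaur, Plau, Plat, S100a10 and Anxa2. They were chosen by name, because Plaur was higher with Gadd45a than in the controls at both replicate numbers, so that pattern of Plaur is a description here and not a result. All 5 genes were among the 15658 genes tested, and they were read by 10 of the 41174 probes of the array. The study asked which genes Gadd45a regulates while fibroblasts are being reprogrammed. Mouse embryonic fibroblasts were infected with virus, kept for 6 days in serum medium with lif, and profiled at day 8 on Cy3 arrays. Every group received SKO, which the labels leave unexplained; the letters commonly denote the reprogramming factors Sox2, Klf4 and Oct4. The Flag group had SKO plus Flag as the control, the Gadd45a group SKO plus Gadd45a, and the G39A group SKO plus G39A, described as a negative mutant of Gadd45a. Each of the 3 groups had 2 arrays, numbered as replicates 1 and 2. Nothing in the labels says that these came from separate cultures, so the p-values measure only the spread between arrays, which may be technical.

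Plasminogen is a circulating zymogen that urokinase (Plau) and tissue plasminogen activator (Plat) cut to the protease plasmin. Urokinase acts mainly while held at the cell surface by its receptor, a GPI-anchored protein made of Ly6 domains (Plaur), and annexin A2 (Anxa2) with its partner S100A10 (S100a10) presents plasminogen and the tissue activator there. Plasmin degrades fibrin and matrix and activates metalloproteinases, and fibroblasts use the system when they migrate or remodel matrix.

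The sequences below are the start regions that could be read for the members and the array probes whose readings matter most. The promoter table, from RefSeq on GRCm38.p6, held 2 of the 5 members. For these the 250 bases before the start are printed 5′ to 3′ along the gene, chr7:24462233-24462482 on the plus strand for Plaur and chr9:69453433-69453682 on the plus strand for Anxa2. Capitals mark the letters TGACTCA, the AP-1 motif, searched on both strands, with TGAGTCA as its reverse complement.
Plaur promoter: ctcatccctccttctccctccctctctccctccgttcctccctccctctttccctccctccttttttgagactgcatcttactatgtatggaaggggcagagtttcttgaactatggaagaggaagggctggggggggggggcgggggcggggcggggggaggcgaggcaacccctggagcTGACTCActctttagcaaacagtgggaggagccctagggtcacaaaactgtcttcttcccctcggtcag
Anxa2 promoter: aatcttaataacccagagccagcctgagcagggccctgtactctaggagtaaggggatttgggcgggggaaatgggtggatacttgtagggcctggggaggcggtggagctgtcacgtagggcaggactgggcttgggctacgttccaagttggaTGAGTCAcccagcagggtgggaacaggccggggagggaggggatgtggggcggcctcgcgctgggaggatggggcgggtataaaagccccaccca
The motif occurred once in each window. Its first base lay 69 bases before the start in Plaur, on the gene's strand, and 95 bases before it in Anxa2, on the opposite strand. Of 32851 promoter windows of 250 bases, 4.46% held it. A match of letters is a description and not evidence that a factor binds there.

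The probes of 60 bases shown next are the second reading of Plaur and the reading of Plau that was dim on some arrays, named by the base of the transcript at which they start.
Plaur probe at base 700: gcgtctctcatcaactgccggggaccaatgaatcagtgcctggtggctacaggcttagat
Plau probe at base 1073: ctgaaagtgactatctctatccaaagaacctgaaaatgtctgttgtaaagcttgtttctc
On mouse build mm9 the Plaur probe lies at chr7:25259315-25259374 and the other Plaur probe, at base 1072, at chr7:25260569-25260628. The Plau probe at base 1073 covers chr14:21659855-21660221, 367 bases for 60 bases of probe, and so crosses a splice junction. The second Plau probe, at base 1974, lies at chr14:21662242-21662301.

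The arrays of replicate 2 stood apart from those of replicate 1 before any member is considered. Arrays sharing a number had signal correlations of 0.988 to 0.993, against 0.919 to 0.921 for the 2 arrays of a group, and 57.0% to 62.9% of spots were well above background. All arrays of replicate 2 were on 1 slide, Flag and Gadd45a of replicate 1 shared another, and G39A of replicate 1 was alone on a slide of its own, so replicate number and slide cannot be told apart. The probe of Pou5f1, the gene of Oct4, had signals of 3851, 5153 and 6363 on the Flag, Gadd45a and G39A arrays of replicate 1, and was not well above background on any array of replicate 2. The members' group differences are therefore given within each replicate number as well as on average. The probe of Gadd45a itself was not brightest on the arrays labelled Gadd45a: its signals were 1017 (Flag), 560 (Gadd45a) and 1395 (G39A) in replicate 1 and 2309, 1870 and 2147 in replicate 2. Whether this probe lies within the sequence carried by the virus was not tested, so it is no check of the labels in either direction. Group names therefore stand for the labels of the arrays. Signals are processed intensities, levels are signals divided by the array's 75th percentile, and differences are log2 differences of these levels within a replicate number.

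Plaur, the urokinase receptor, was higher on the arrays labelled Gadd45a than on all others. The probe at base 1072 had signals of 5091 (Flag), 7532 (Gadd45a) and 5457 (G39A) in replicate 1. In replicate 2 its signals were 3549 (Flag), 5718 (Gadd45a) and 3766 (G39A). Both Gadd45a arrays were brighter than the 4 other arrays, and within each number Flag and G39A lay close together. Levels at this probe were 8.79 and 7.62 for Gadd45a, 6.13 and 4.42 for Flag, and 5.73 and 4.81 for G39A, in the order of replicates 1 and 2. The Flag and G39A arrays overlapped and their order turned between the replicate numbers.

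**Figure D1:**
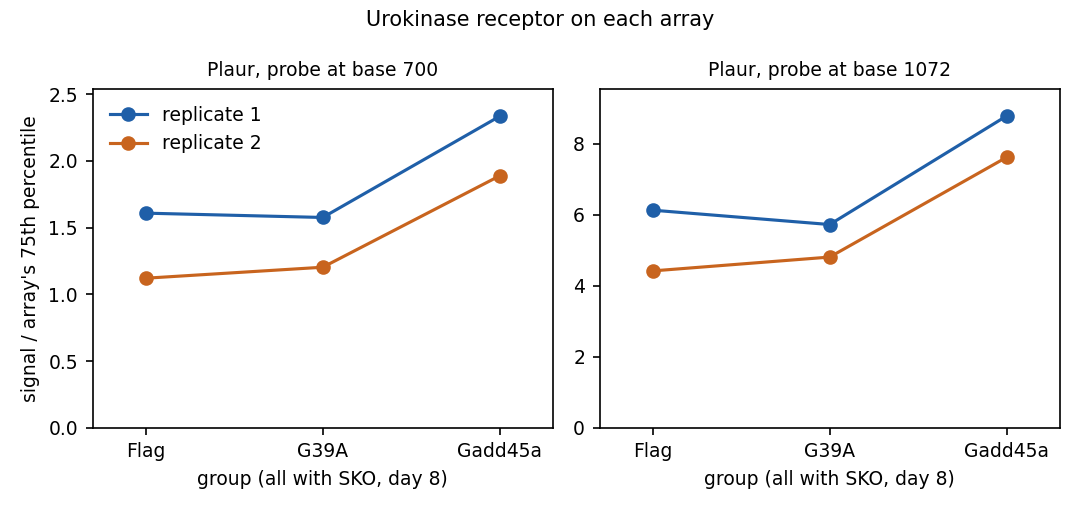
Level of Plaur (signal divided by the array's 75th percentile) at its probes at bases 700 and 1072, on the Flag, G39A and Gadd45a arrays. Each point is 1 array and each line joins the arrays of 1 replicate number; at both probes the Gadd45a points are the highest of their line.

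The probe at base 700 gave the same order. Its signals were 1335 (Flag), 2000 (Gadd45a) and 1501 (G39A) in replicate 1, and 899 (Flag), 1416 (Gadd45a) and 941 (G39A) in replicate 2. In levels the Gadd45a arrays, at 2.33 and 1.89, lay above the other 4, which ranged from 1.12 to 1.61; in unscaled signal the Gadd45a array of replicate 2 lay below the G39A array of replicate 1.

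From Flag to Gadd45a, Plaur differed by 0.52 in replicate 1 and 0.79 in replicate 2 (log2) at base 1072, and by 0.54 and 0.75 at base 700. The mean at base 1072 was 0.65 (SE 0.11, n = 2 per group), or 1.57-fold. Both arrays of a pair shared a slide here. From G39A to Gadd45a the differences were 0.62 and 0.66 at base 1072, and 0.57 and 0.65 at base 700. From Flag to G39A they were -0.10 and 0.12 at base 1072, with opposite signs. No p-value is given for these comparisons of Plaur, because the Gadd45a arrays' levels led to its choice and the same arrays or their controls enter each of them.

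The 2 activators did not share the pattern of their receptor. Plau, urokinase, was dim: at base 1974 its signals were 77.3 (Flag), 113 (Gadd45a) and 109 (G39A) in replicate 1, and 449 (Flag), 336 (Gadd45a) and 348 (G39A) in replicate 2. Flag was the lowest of its number in replicate 1 and the highest in replicate 2. The difference from Flag to Gadd45a was 0.51 and then -0.32 (log2). From Flag to G39A it was 0.30 and then -0.33, on average -0.01 (SE 0.22, limma adjusted p = 0.999). The difference from G39A to Gadd45a was 0.21 and 0.01, on average 0.11 (SE 0.22, limma adjusted p = 0.884).

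The junction probe of Plau at base 1073 disagreed with the other one. In replicate 1 its signals were 56.5 (Flag), 7.13 (Gadd45a) and 8.84 (G39A), the latter both not well above background. In replicate 2 they were 26.9, 23.3 and 22.3 in the same order, all well above background. It was thus brightest on the Flag array of replicate 1, where the probe at base 1974 was dimmest, and the reading of Plau in replicate 1 depends on the probe.

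Plat, the tissue activator, was slightly lower with Gadd45a in both pairs at its probes at bases 2303 and 1742. At base 2303 its signals were 873 (Flag), 759 (Gadd45a) and 989 (G39A) in replicate 1, and 12974 (Flag), 10937 (Gadd45a) and 13018 (G39A) in replicate 2. The Gadd45a array was the dimmest of each number, by a small margin beside the gap between the numbers. From Flag to Gadd45a the difference was -0.25 and -0.15 (log2) at base 2303 and -0.21 and -0.31 at base 1742. From G39A to Gadd45a it was -0.23 and -0.19 at base 2303, with a mean of -0.21 (SE 0.09, limma adjusted p = 0.574), which did not pass the threshold of 0.05. From Flag to G39A it was -0.02 and 0.04, with a mean of 0.01 (SE 0.09, limma adjusted p = 0.997). The remaining Plat probe, at base 3677 of a cDNA clone, was above the background mark on Flag and G39A of replicate 2 alone and was not tested.

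S100a10 and Anxa2, which together form the plasminogen receptor complex, differed little between groups. S100a10 had signals of 48214 (Flag), 48389 (Gadd45a) and 65080 (G39A) in replicate 1, and 29339 (Flag), 28177 (Gadd45a) and 29415 (G39A) in replicate 2. The G39A array of replicate 1, alone on its slide, was the brightest, and the 3 arrays of replicate 2 were close together. From Flag to Gadd45a S100a10 differed by -0.04 and 0.04 (log2). From Flag to G39A it differed by 0.23 and 0.04, with a mean of 0.14 (SE 0.11, limma adjusted p = 0.991). Between G39A and Gadd45a it differed by -0.27 and -0.00063, with a mean of -0.14 (SE 0.11, limma adjusted p = 0.694). Without the G39A array of replicate 1 these means were 0.020 and -0.021.

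Anxa2 was likewise brightest on the G39A array of replicate 1. At base 962 its signals were 41672 (Flag), 45533 (Gadd45a) and 54057 (G39A) in replicate 1, and 22990 (Flag), 22940 (Gadd45a) and 23234 (G39A) in replicate 2. From Flag to Gadd45a it differed by 0.08 and 0.09 (log2), against 0.14 and -0.03 at base 496, so the probes differ in sign in replicate 2. From Flag to G39A it differed by 0.18 and 0.05 at base 962, with a mean of 0.11 (SE 0.10, limma adjusted p = 0.991). Between G39A and Gadd45a it differed by -0.09 and 0.04, with a mean of -0.03 (SE 0.10, limma adjusted p = 0.940). At base 496 the differences from Flag to G39A were 0.34 and 0.14, with a mean of 0.24 (SE 0.11, limma adjusted p = 0.991), which did not pass the threshold either.

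**Figure D2:**
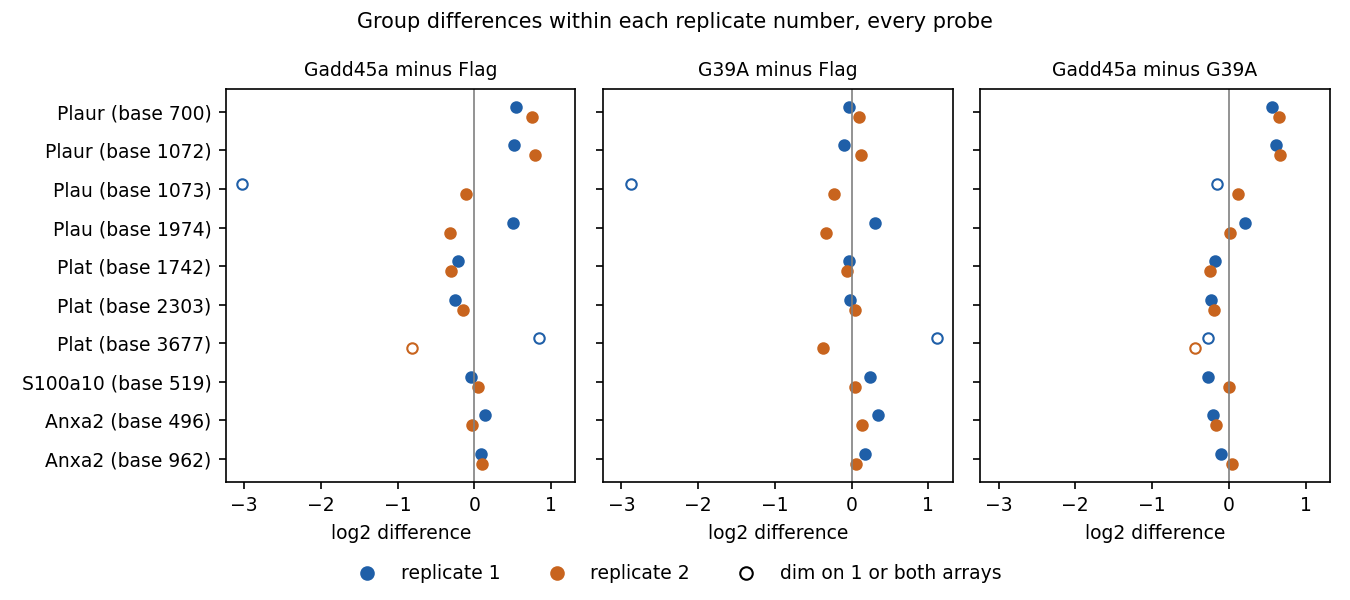
Log2 difference between groups within each replicate number for every probe of the 5 genes, in 3 panels (Gadd45a minus Flag, G39A minus Flag, Gadd45a minus G39A). Filled points are replicates 1 and 2 with both arrays well above background, and open points rest on at least 1 dim array; in the panels with Gadd45a the Plaur points lie between 0.52 and 0.79, and the other filled points between -0.32 and 0.51.

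By count, 2 of the 5 members were higher with Gadd45a than with Flag at both numbers (Plaur and Anxa2). Of the rest, 1 was lower at both (Plat) and 2 went opposite ways. The place of Plaur in this count was fixed by its choice. That of Anxa2 depends on the probe, because at base 496 it differed by -0.03 from Flag to Gadd45a in replicate 2. Over all tested genes 23.4% were higher at both numbers and 33.1% lower. From Flag to G39A 2 members were higher at both numbers, 0 lower and 3 opposite, against 19.3% and 28.6% of all genes. From G39A to Gadd45a 2 were higher, 2 lower and 1 opposite, against 30.8% and 29.3%. In replicate 2 of this comparison S100a10 counted as lower on a difference of -0.00063 and Plau as higher on 0.01. The other Plau probe, dim in replicate 1, had opposite signs (-0.16 and 0.12). Plaur was fixed by its choice as 1 of the higher members here too. The counts with Gadd45a therefore cannot test the members against all genes. With limma, 0% of the 15658 genes passed an adjusted p of 0.05 in any of the 3 comparisons, the lowest adjusted p being 0.127, 0.115 and 0.095 in the order given. Unadjusted p was under 0.05 for 1345, 451 and 1390 genes. The comparisons share arrays and do not add to each other.

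In the contrast of the replicate numbers, which did not enter the choice of members, the probes that represent Plau, Plat, S100a10 and Anxa2 in the fit differed more than between the groups, and Plaur differed less than between Gadd45a and either other group. Each group gave 1 pair of arrays here, so the SE and p-values of this contrast measure how alike the shift was in the 3 groups. They do not measure whether it would recur in further replicates. Plat was higher in replicate 2 in all 3 groups, with differences of 3.94 (Flag), 4.04 (Gadd45a) and 4.0 (G39A) on the log2 scale at base 2303. The mean was 4.0 (SE 0.07, limma adjusted p = 0.000116), or 15.9-fold. The probe at base 1742 gave 4.20, or 18.4-fold. Only 67 of the 15658 tested genes were as high (0.428%). Genes well above background in 1 replicate number only, such as Pou5f1, did not pass the filter and are missing from this ranking. Plau was higher by 2.10 (SE 0.18, limma adjusted p = 0.00137), or 4.29-fold, at base 1974. At base 1073 Plau differed by 0.83 (limma adjusted p = 0.316), and by -1.02 in the Flag pair alone.

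The receptor and the plasminogen receptor complex went the other way. Anxa2 fell by 0.85 (SE 0.08, limma adjusted p = 0.00158) at base 962 and by 0.98 at base 496. S100a10 fell by 0.71 (SE 0.09, limma adjusted p = 0.00407). Plaur fell by 0.31 (SE 0.09, limma adjusted p = 0.0439). This call was lost with no filter on dim probes (limma adjusted p = 0.145) and when any 1 of the 6 arrays was left out. The calls of the other 4 genes held under all of these. Leaving out either array of a group gave the same result in this contrast. The 6 fits thus hold 1 distinct check for each group, with fewer residual degrees of freedom. Over all tested genes 33% were called higher and 23.4% lower in replicate 2, so a call in this contrast was frequent. The 5th to 95th percentile of the tested genes ran from -1.82 to 1.68, and Plat and Plau at base 1974 lay outside it.

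**Figure D3:**
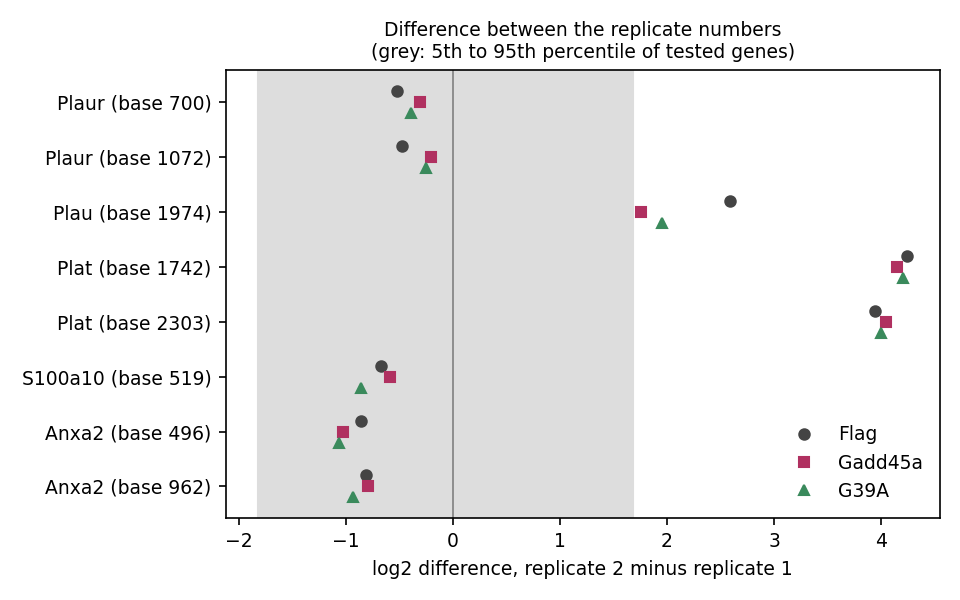
Log2 difference of replicate 2 minus replicate 1 for each probe well above background on all 6 arrays, in the Flag, Gadd45a and G39A groups (points), with the 5th to 95th percentile of all tested genes in grey (-1.82 to 1.68). The Plat points lie between 3.94 and 4.24 and the Plau points between 1.76 and 2.59, to the right of the grey band, and the Plaur, S100a10 and Anxa2 points lie inside it, below 0.

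Markers of other cell types moved with the replicate numbers, and the replicate contrast was read beside them; fewer cells of a type and less RNA per cell cannot be told apart in these bulk samples. The 9 fibroblast markers, of the labelled cell type, were all well above background on every array, with summed levels of 732 to 829 in replicate 1 and 1166 to 1206 in replicate 2. The 8 macrophage and leukocyte markers summed to 2.53 to 2.70 in replicate 1 and 6.86 to 11.1 in replicate 2, with Ptprc and Adgre1 not well above background on some arrays. The list did not rise as a whole. Its members Itgam and Cd68 differed by -3.03 (limma adjusted p = 0.00146) and -0.89 (limma adjusted p = 0.00246) from replicate 1 to replicate 2. The 6 epithelial and keratinocyte markers summed to 5.25 to 6.03 in replicate 1 and 1.16 to 2.64 in replicate 2, and Cdh1 and Epcam were well above background on replicate 1 only. The 6 endothelial markers summed to 0.82 to 1.70 over all arrays, with Cdh5 well above background on none. The macrophage and leukocyte sum was the lowest of its number on both arrays labelled Gadd45a, at 2.53 against 2.58 (Flag) and 2.70 (G39A), and 6.86 against 11.1 and 7.92. The single markers did not all follow this sum. With Gadd45a, 5 of the 8 were higher than with Flag in replicate 1 and 3 in replicate 2 (medians 0.19 and -0.43). Against G39A, 5 and 2 were higher (medians 0.22 and -0.21). On the arrays labelled Gadd45a, where Plaur was highest, the epithelial sum was the highest of its number, at 6.03 against 5.25 (Flag) and 5.53 (G39A), and 2.64 against 1.16 and 1.56. Dim markers included, 4 of the 6 epithelial markers were higher than with Flag at each number (medians 0.24 and 0.45). Against G39A 4 were higher at each number too (medians 0.08 and 0.06). Epcam was lower with Gadd45a than with Flag at both numbers (-0.11 and -0.21). The endothelial sum with Gadd45a was 1.22 against 1.20 (Flag) and 1.18 (G39A), and 1.70 against 0.82 and 0.87. Dim markers included, 4 of the 6 endothelial markers were higher with Gadd45a than with Flag at each number. In replicate 2 only 3 of them were well above background on Gadd45a and 3 on G39A, against 5 on Flag. Tek was lower there with Gadd45a, at a signal of 15.1 against 25.0 (Flag). The part of these lists in the Plaur, Plat and Plau results was not tested.

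Among the inhibitors of the system, Serpine2, protease nexin-1, was lower with Gadd45a than with the other groups at each number. Its signals were 2122 (Flag), 1993 (Gadd45a) and 3639 (G39A) in replicate 1, and 5496 (Flag), 4040 (Gadd45a) and 5407 (G39A) in replicate 2. Serpine2 differed by 0.58 from Flag to G39A in replicate 1, where G39A was alone on its slide, and by 0.01 in replicate 2. From G39A to Gadd45a it differed by -0.72 and -0.36 (log2), with a mean of -0.54 (SE 0.16, limma adjusted p = 0.530). From Flag to Gadd45a it differed by -0.14 and -0.35, with a mean of -0.24 (SE 0.16, limma adjusted p = 0.717). Neither difference passed the threshold. Serpinb2, PAI-2, differed by -0.32 and 1.67 from Flag to Gadd45a, with opposite signs.

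**Figure D4:**
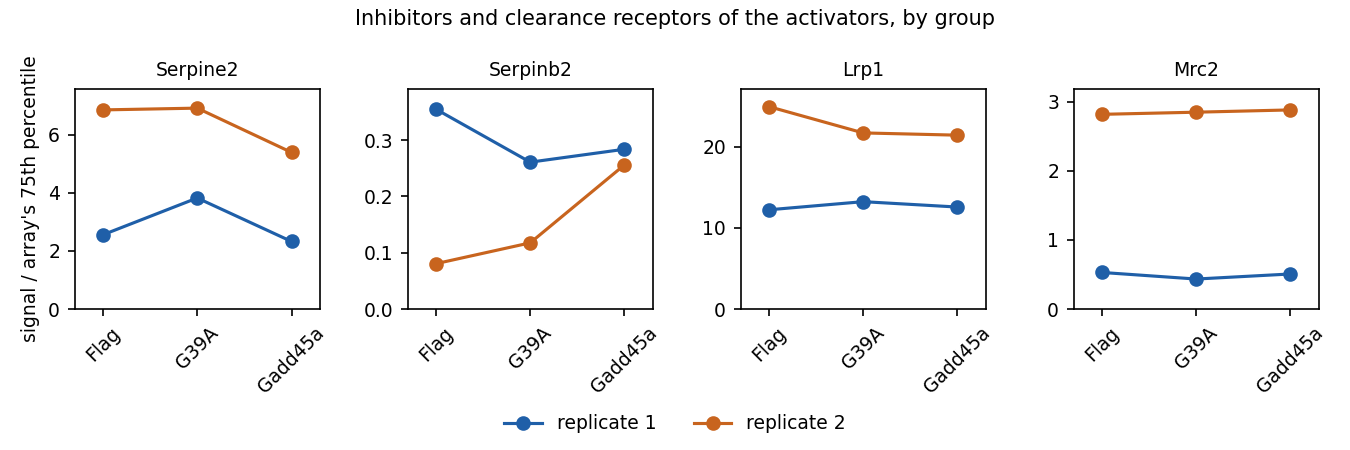
Levels (signal divided by the array's 75th percentile) of the inhibitors Serpine2 and Serpinb2 and the receptors Lrp1 and Mrc2, on the Flag, G39A and Gadd45a arrays. Each line joins the arrays of 1 replicate number; Serpine2 is lowest with Gadd45a on both lines, and Mrc2 differs mainly between the lines.

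Of 10 inhibitors 4 were tested and 0 were called in any group comparison, with a median from Flag to Gadd45a of 0.36 against -0.02 over all genes; by replicate number it was -0.17 and 0.69. Plg, plasminogen, was well above background on the Flag array of replicate 1 alone (signal 20.4) and was not tested. In the replicate contrast Serpine2 rose by 1.16 (SE 0.13, limma adjusted p = 0.00293), and Serpinb2 differed by -1.14 (SE 0.40, limma adjusted p = 0.0675). Serpine2 was thus higher in replicate 2 together with Plat and with Plau at base 1974. The Plau probe at base 1073 was lower in replicate 2 in the Flag pair.

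Clearance receptors and the other partners had 0 calls between groups. Counted as higher and lower from Flag to Gadd45a at both numbers, there were 0 and 0 of 5 clearance genes (median -0.03), 2 and 2 of 5 plasminogen binding genes (median -0.15), 2 and 2 of 11 membrane partners (median 0.02) and 3 and 2 of 11 substrates (median -0.04). From G39A to Gadd45a the counts were 3 and 2, 1 and 3, 4 and 1, and 5 and 2 in the same order, with medians of 0.04, -0.06, 0.05 and 0.05. Over all tested genes 23.4% were higher and 33.1% lower at both numbers from Flag to Gadd45a, and 30.8% and 29.3% from G39A to Gadd45a. The medians of all genes were -0.02 and -0.0041 for these comparisons. Of the list medians just given, that of the plasminogen binding genes from Flag to Gadd45a (-0.15, 5 genes) lay furthest from them. The median of the inhibitors in that comparison, given above, lay further away, at 0.36. Mrc2, the collagen receptor also named uPARAP, rose by 2.54 (SE 0.09, limma adjusted p = 0.000193) from replicate 1 to replicate 2, and Lrp1, which takes up activator and inhibitor complexes, by 0.84 (SE 0.10, limma adjusted p = 0.00306). In this contrast limma called 33% of all tested genes higher and 23.4% lower in replicate 2, with a median of 0.11. Of 5 tested clearance genes it called 4 higher and 1 lower (median 1.12), and of 5 tested plasminogen binding genes 2 higher and 1 lower (median 0.20). Of 11 tested membrane partners of the receptor it called 6 higher and 2 lower (median 0.54), and of 11 tested substrates 7 higher and 2 lower (median 1.21). The substrates Fn1, fibronectin, and Mmp2, the gelatinase, were named after their values were seen: they rose by 2.91 (limma adjusted p = 0.000153) and 2.78 (limma adjusted p = 0.000136).

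Among relatives of the members, 0 genes were called between groups. From Flag to Gadd45a at both numbers, 1 of 9 tested annexins was higher and 2 lower (median 0.05), 3 of 10 tested S100 genes were higher and 3 lower (median 0.05), and 5 of 14 genes with Ly6 or urokinase receptor domains were higher and 2 lower (median -0.01). The shares over all tested genes in this comparison were 23.4% higher and 33.1% lower. In the replicate contrast limma called 2 of the 9 annexins higher and 4 lower (median -0.28), 2 of the 10 S100 genes higher and 4 lower (median -0.08), and 4 of the 14 Ly6 domain genes higher and 8 lower (median -1.03). Over all genes 33% were called higher and 23.4% lower, with a median of 0.11. All 8 lists together held 97 symbols, of which 69 were tested. A gene well above background in 1 replicate number only was not tested, with Anxa10, S100a9 and Psca among such relatives. The counts of the replicate contrast leave these genes out. The membrane partner Itgam, the integrin alpha M of leukocytes, was the tested list member, outside those named always, that differed by at least 0.5 the same way at both numbers; listed genes that did not pass the filter on dim probes are left out here. It differed from G39A to Gadd45a by -0.53 and -1.35 (mean -0.94, SE 0.33, limma adjusted p = 0.552). Its signals were 246 (Flag), 217 (Gadd45a) and 348 (G39A) in replicate 1. In replicate 2 they were low, at 19.2 (Flag), 21.6 (Gadd45a) and 57.4 (G39A). The difference from Flag to Gadd45a was -0.22 and 0.27, with opposite signs.

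The genes whose pattern was most like that of Plaur were found by Pearson r over the 6 arrays, after the mean of each replicate number was subtracted, among 1922 genes with enough spread. They were Tnfrsf23 and Bfsp1 (r = 0.998 each), Zfp296 (r = 0.998), Dcbld2 (r = 0.996) and Gdf5 (r = 0.996). With 6 arrays and 2 of them Gadd45a, many genes reach a high r, and 86 had an r of at least 0.95. Tnfrsf23, a decoy receptor of the TNF receptor family, differed by 0.60 and 0.90 from Flag to Gadd45a, and Gdf5, a growth factor of the BMP family, by 0.73 and 1.23.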

How the data were processed

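The 6 arrays measured RNA of 3 groups, 2 arrays each. Per the file headers and the submitters' processing notes, spot intensity was extracted by the authors with Agilent Feature Extraction 10.7, background-subtracted and detrended, with no normalization between arrays. Each spot also carries deposited marks for signal above background, saturation (found on none) and outliers. A deposited table of log2 values served as an alternative.

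From the scanner files, control spots and outliers were left out, spots of a probe were averaged, and log2 intensity was centred on the 75th percentile of its array. A probe entered if both arrays of some group marked it above background (24158 probes), with 1 probe of highest mean signal for each of 15658 genes. limma 3.58 in R 4.3 was fitted on all 6 arrays with the replicate number as a block (2 residual degrees of freedom), and p-values were adjusted by Benjamini-Hochberg over every tested gene (threshold 0.05). The code was tested on simulated data. The block was chosen because the groups were to be compared within replicate number; the deviations of same-numbered arrays from their group means correlated at 0.911 to 0.915 over the 3 pairs of groups. The median standard error was 0.117 (log2); the number of arrays limits this precision, and it was 0.318 without the block, 0.0996 with normexp and 0.199 with no filter on dim probes.

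Members and lists were chosen with earlier results of these data known. Besides the members, Serpine2, Serpinb2, Mrc2, Plg and Lrp1 are always named (1 other listed gene is not reported here), as are up to 4 tested genes of a list that differ by at least 0.5 (log2) the same way at both numbers, and the 5 genes most like Plaur (SD of at least 0.2). Alternatives were other normalizations, filters, probe choices, the deposited table, other blocks and leaving out each array. Probe positions are those of build mm9 in the file headers.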

Additional observations from a re-analysis of the deposited data

How the results depend on the processing

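Without the replicate block, in a fit that is not paired, 0 genes passed the threshold in each of the 3 group comparisons and unadjusted p was under 0.05 for 97, 82 and 114 genes (Gadd45a against Flag, G39A against Flag, Gadd45a against G39A). The differences of the members stayed the same, as the balanced layout fixes, and the SE of Plaur rose to 0.25. The slide as a random block called 19, 3 and 7 genes, and quantile normalization and the deposited table called 1 and 1 in Gadd45a against G39A, with no member among any of them. The log2 difference of Plaur from G39A to Gadd45a was 0.59 with normexp and 0.60 with the slide as a random or fixed block (0.56 to 0.72 with 1 array left out). Plaur fell by 0.31 between the replicate numbers with no filter as well, with the call lost, and by 0.23 to 0.36 with 1 array left out (-0.36 to -0.23). Plat from Flag to G39A turned to -0.0026 with normexp and to -0.042 with the slide as a random block. Anxa2 from Flag to Gadd45a was 0.077 with normexp, and from G39A to Gadd45a it turned to 0.018 and 0.040 with the slide as a random and a fixed block. With 1 array left out, Plau ranged from -0.38 to 0.35 (Flag to G39A) and from -0.15 to 0.36 (G39A to Gadd45a); it turned to 0.35 and 0.094 without the Flag and the G39A array of replicate 2, and to -0.15 without the Gadd45a array of replicate 1. Plat ranged from -0.028 to 0.051 (Flag to G39A), S100a10 from -0.089 to 0.088 (Flag to Gadd45a), from 0.020 to 0.25 (Flag to G39A) and from -0.25 to -0.021 (G39A to Gadd45a; the slide as a fixed block gave 0.020 and -0.021 for the last 2), and Anxa2 from 0.051 to 0.13 (Flag to Gadd45a) and from -0.092 to 0.040 (G39A to Gadd45a), with 0.012 without the Gadd45a array of replicate 1. The causes were not tested. Of 456 list medians under alternatives 92 moved and 60 changed sign. Signal near background limits Plau at base 1073 and Plat at base 3677.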
